A study of Mus musculus with 2 samples.

Results

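Cytochrome P450 enzymes of families 1 to 4 are the haem monooxygenases by which the liver oxidises drugs, solvents, steroids and fatty acids. They were taken as all gene symbols of the deposited gene list that begin with Cyp, a family number of 1 to 4 and a subfamily letter and end in a number. The rule matched 75 of the 31053 genes listed, and 55 of them had at least 20 UMIs (distinct RNA molecules) over both libraries and were quantified. Within this rule no measured value other than that minimum chose them, but the rule was set with earlier results of these data known.

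The mouse livers came from 2 groups with 1 droplet single-cell RNA library each. The pIVCL library came from C57BL/6 mice whose inferior vena cava had been partly tied off, a model of portal hypertension by congestion, with surgery at 8 to 10 weeks of age and 6 weeks until sacrifice. The Control library came from C57BL/6 liver and is titled healthy. The same starting age of 8 to 10 weeks is given for it. The growth protocol attached to both samples describes the ligation, and neither a sham operation nor the number of animals per library is given in the sources used here, so every pIVCL over Control value rests on the genotype label and compares these libraries, with no replicate check and no test.

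P450 enzymes sit in the membrane of the endoplasmic reticulum and receive electrons from P450 oxidoreductase and cytochrome b5. Liver P450 genes are zoned: many, such as Cyp2e1 and Cyp1a2, are strongest in hepatocytes around the central vein, where blood leaves the lobule, while a few, such as Cyp2f2, are strongest around the portal tract, where it enters. Nuclear receptors set much of their transcription: CAR and PXR act on Cyp2b, Cyp2c and Cyp3a genes, PPAR-alpha on Cyp4a genes, and the aryl hydrocarbon receptor on Cyp1 genes. In mice several members also differ between the sexes under the pattern of growth hormone.

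The genes lie largely in tandem clusters (coordinates in mm10, GRCm38, from GENCODE release M21). The largest, on chromosome 19 at 39007019 to 40187333, holds 14 Cyp2c genes. On chromosome 7 a cluster at 25802475 to 27158668 holds 13 genes of the Cyp2a, Cyp2b and Cyp2f and related subfamilies, among them Cyp2f2 (ENSMUSG00000052974). Cyp2e1 (ENSMUSG00000025479) lies alone at 140763739 to 140774987 on the same chromosome. The Cyp4a genes and Cyp4b1 share a cluster on chromosome 4 at 115106323 to 115647723.

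Promoter windows from RefSeq are shown for the 5 members on which the results below turn most. Each is on the strand of its gene, 250 bases before to 50 after the annotated start (build GRCm38.p6). The members are the central-zone gene Cyp2e1, the portal-zone gene Cyp2f2, Cyp2c69, Cyp2c70 and the endothelial member Cyp4b1. Cyp2c69 and Cyp2c70 lie in the chromosome 19 cluster with other members between them, and differed between the libraries in opposite directions. Capitals mark matches, on either strand, to the TATA box letters TATAAA or the HNF4 motif letters CAAAGTCCA. The windows are chr7:140763569-140763868 (plus strand) for Cyp2e1, chr7:27119705-27120004 (plus strand) for Cyp2f2, chr19:39886720-39887019 (minus strand) for Cyp2c69, chr19:40187237-40187536 (minus strand) for Cyp2c70 and chr4:115647672-115647971 (minus strand) for Cyp4b1.
Cyp2e1: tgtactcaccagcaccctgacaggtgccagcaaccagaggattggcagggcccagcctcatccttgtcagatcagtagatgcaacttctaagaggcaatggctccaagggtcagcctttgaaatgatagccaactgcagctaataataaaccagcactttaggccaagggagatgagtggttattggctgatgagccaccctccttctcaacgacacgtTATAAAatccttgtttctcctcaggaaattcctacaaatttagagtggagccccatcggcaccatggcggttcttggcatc
Cyp2f2: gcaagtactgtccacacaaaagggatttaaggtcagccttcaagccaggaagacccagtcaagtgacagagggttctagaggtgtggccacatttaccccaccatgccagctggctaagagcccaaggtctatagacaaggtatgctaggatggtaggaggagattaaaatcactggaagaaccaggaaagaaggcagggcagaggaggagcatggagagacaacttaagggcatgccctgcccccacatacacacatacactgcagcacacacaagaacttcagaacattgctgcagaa
Cyp2c69: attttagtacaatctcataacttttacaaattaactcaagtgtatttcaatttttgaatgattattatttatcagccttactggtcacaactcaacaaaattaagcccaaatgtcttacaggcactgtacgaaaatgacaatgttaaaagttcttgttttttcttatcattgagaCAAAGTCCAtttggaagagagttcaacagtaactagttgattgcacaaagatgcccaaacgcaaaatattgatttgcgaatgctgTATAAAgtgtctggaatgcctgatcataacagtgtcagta
Cyp2c70: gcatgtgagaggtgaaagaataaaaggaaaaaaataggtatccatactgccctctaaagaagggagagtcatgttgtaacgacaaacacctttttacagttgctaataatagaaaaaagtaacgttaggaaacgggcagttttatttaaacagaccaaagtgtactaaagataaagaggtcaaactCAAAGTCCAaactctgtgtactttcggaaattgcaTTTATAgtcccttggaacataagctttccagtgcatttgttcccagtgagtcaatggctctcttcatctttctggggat
Cyp4b1: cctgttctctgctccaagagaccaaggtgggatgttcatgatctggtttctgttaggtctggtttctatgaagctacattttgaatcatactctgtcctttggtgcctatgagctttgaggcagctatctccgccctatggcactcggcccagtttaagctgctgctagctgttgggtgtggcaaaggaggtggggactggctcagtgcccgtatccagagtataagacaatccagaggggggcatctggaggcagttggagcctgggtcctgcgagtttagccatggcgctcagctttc

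Of the 75 members, 62 had such a window among 27025 gene windows. TATAAA stood in 26 member windows (41.9%) and in 14.2% of all windows. CAAAGTCCA stood in 8 member windows (12.9%) and in 0.477% of all windows. The 8 were those of Cyp2c40, Cyp2c65, Cyp2c67, Cyp2c68, Cyp2c69, Cyp2c70, Cyp3a11 and Cyp3a16, so both Cyp2c69 and Cyp2c70 held it. The aryl hydrocarbon receptor core GCGTG stood in 13 member windows (21.0%) and in 32.5% of all windows, and the TCF/LEF letters ATCAAAG in 2 (3.23%) and in 3.72%. The C/EBP letters TTGCGCAA and the palindromic HNF1 motif stood in 0 member windows, and in 0.185% and 0.00740% of all windows. Matches are descriptions of these letters and windows, some of which come from near-identical neighbouring genes.

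The library reads the ends of transcripts, and some members share nearly the same end. The last 300 bases of each member's transcript were matched to any stretch of the transcripts of other P450 genes. By this measure 8 members were at least 95% identical to another P450 gene and 21 at least 90%. Cyp2c40 was 98.0% identical to Cyp2c67, and Cyp2c69 was 96.7% identical to Cyp2c40. The end of Cyp2a4 was 97.0% identical to a stretch of Cyp2a5, but the end of Cyp2a5 reached at most 55.3% in any other P450 gene. Cyp3a44 was 95.3% identical to the pseudogene Cyp3a63-ps, Cyp2c37 was 93.7% identical to Cyp2c50 and Cyp4a10 was 93.0% identical to Cyp4a31. How UMIs were split within these groups is uncertain. The counts did keep genes with like ends apart in places: Cyp2c37 and Cyp2c50, 93.7% identical in both directions, had unlike library ratios. Cyp2a4 and Cyp2a5 had opposite zone patterns, but by this measure they do not share an end.

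The pIVCL file held 7042 barcodes and 38154000 UMIs, and the Control file 3574 barcodes and 24637681 UMIs. After filtering, 5443 pIVCL cells (median 2005 UMIs) and 2721 Control cells (median 5262 UMIs) remained, of which 1853 and 464 were hepatocyte-like. Doublets were largely not removed: the caller marked 3 barcodes in pIVCL and 5 in Control. The files shared 13 barcode sequences, 9 of them among kept cells. All 10 hepatocyte markers were detected in both hepatocyte-like classes, with summed levels of 86271 and 92313 CPM (UMIs of a gene per 1000000 UMIs of the class). Among markers of other cell types, the highest sums in these cells were those of monocytes and macrophages, at 870.0 CPM in pIVCL and 1159 CPM in Control (9 markers, 0 and 2 of them at 0). Sums were 151 CPM in pIVCL and 1.39 CPM in Control for neutrophils (8 markers, 0 and 5 of them at 0), and 31.4 and 131 CPM for sinusoidal endothelium (10 markers, none at 0). Deep cells came mostly from separate clusters: cluster 4 held 700 pIVCL cells and 6 Control cells, and cluster 11 held 3 and 215. The labels do not give the sex of the mice. Xist, expressed from the inactive X chromosome of female cells, had a UMI in 721 of 786 pIVCL and 243 of 259 Control hepatocyte-like cells of at least 5000 UMIs, and 4 Y-linked genes together had 4 UMIs in each file.

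Over all 75 members, P450 transcripts made up 1.28% of hepatocyte-like UMIs in pIVCL and 1.77% in Control. The ratio was 0.721 with a 95% interval of 0.716 to 0.726; here and below, intervals on levels, ratios and shares are exact Poisson or binomial intervals that cover counting error only. In single cells of at least 5000 UMIs the P450 share had a median of 1.28% in pIVCL (quartiles 1.04% and 1.56%, 786 cells) and of 1.52% in Control (quartiles 1.19% and 2.15%, 259 cells). The ranges of single cells overlapped widely, from 0.103% to 3.24% in pIVCL and from 0.212% to 3.82% in Control. A pIVCL cell of this depth held UMIs of a median of 30 members and a Control cell of 33.

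The subfamilies did not move together. Each sum covers only the symbols that the rule matched, so genes whose symbols end in a letter, such as Cyp4a12a, are left out. Cyp2e, which in the mouse is the single gene Cyp2e1, had a pIVCL over Control ratio of 0.205, and the fatty acid omega-hydroxylases of Cyp4a summed to 389 CPM in pIVCL and 1352 CPM in Control, a ratio of 0.287. Cyp2c, the largest subfamily, summed to 3309 and 5116 CPM, a ratio of 0.647. Ratios were 0.619 for Cyp1a, 0.733 for Cyp2b, 0.742 for Cyp2d, 0.760 for Cyp2j and 0.918 for Cyp4f. Cyp3a, the subfamily of the main steroid and drug oxidases, was close to even at 4111 CPM in pIVCL and 3772 CPM in Control (ratio 1.09). Cyp2a, at 995 and 649 CPM (ratio 1.53), and Cyp2f, at 1096 and 572 CPM (ratio 1.92), were higher in pIVCL. The family totals were therefore carried by a few strongly lower genes: Cyp2e1 alone accounted for 690.2 CPM in pIVCL and 3359 CPM in Control.

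Of the 75 members, 49 had at least 20 summed UMIs in hepatocyte-like cells. A gene was counted as past 2-fold when the log2 ratio of CPM, with 20 CPM added to both libraries, was at least 1 in size. By that rule 8 of the 49 members were lower in pIVCL and 1 was higher, while 0.434% of all 11287 genes measured in these cells were lower and 0.416% higher. Since low genes rarely reach 2-fold with 20 CPM added, the same count was made at 50 CPM or more in the higher library: 8 of 36 members were lower and 1 higher, against 1.74% and 1.58% of 2588 genes. At 200 CPM or more it was 6 lower and 1 higher of 23 members, against 4.01% and 3.00% of 699 genes. The median log2 ratio was -0.11 over the 49 members and 0.00 over all genes measured. The members nearest the 2-fold line on its inside were Cyp2d40 (ratio of CPM 0.392, without the 20 CPM added) and Cyp2c70 (log2 ratio 1.14). The nearest on its outside were Cyp2f2 (log2 ratio 0.91) and Cyp2c38 (log2 ratio -0.84).

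**Figure D1:**
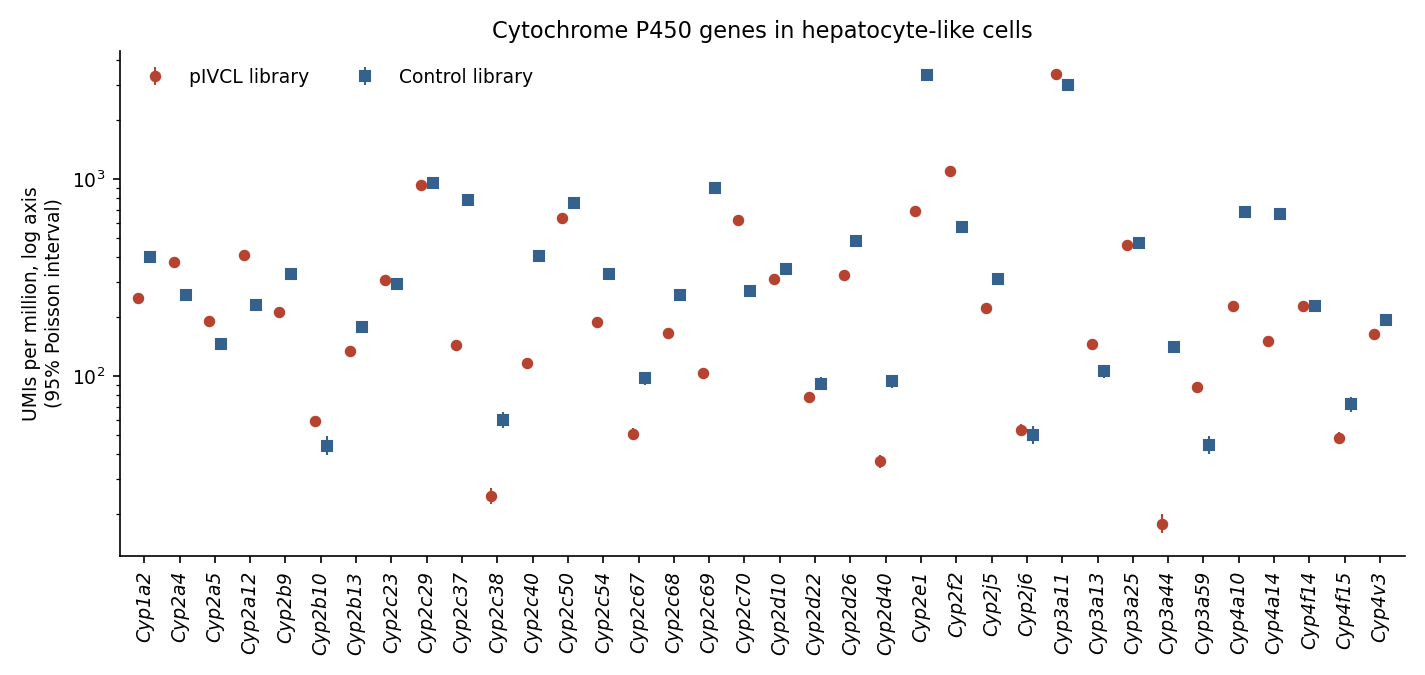
CPM (log axis) of the 36 members with at least 50 CPM in hepatocyte-like cells of either library, in red for pIVCL and blue for Control, with 95% Poisson intervals that are mostly smaller than the symbols. Cyp3a11 tops the pIVCL library at 3395 CPM while Cyp2e1, at 690.2 CPM there, tops Control at 3359 CPM.

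Cyp2e1, which oxidises ethanol, paracetamol and small solvents, had 12335 UMIs in pIVCL and 24192 in Control hepatocyte-like cells. Its level of 690.2 CPM against 3359 CPM gave a ratio of 0.205 (95% interval 0.201 to 0.210). In order of level it was the highest of the members in Control, above Cyp3a11 at 3003 CPM. In pIVCL it stood below Cyp3a11 (3395 CPM), Cyp2f2 (1096 CPM) and Cyp2c29 (932 CPM). Cyp1a2, which oxidises caffeine and aryl amines and is a target of the aryl hydrocarbon receptor, had 250.2 CPM in pIVCL and 404 CPM in Control (ratio 0.619, 0.590 to 0.648).

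Among the Cyp2c genes, 3 were past 2-fold lower. Cyp2c69, a member that is higher in female mice, had 104 CPM in pIVCL and 903 CPM in Control, the lowest log2 ratio of all members at -2.90. Cyp2c37, which oxidises arachidonic acid, had 143 and 782 CPM (log2 ratio -2.30). Cyp2c40, which hydroxylates arachidonic acid, had 116 and 406 CPM (-1.65). Cyp2c40, Cyp2c67, Cyp2c68 and Cyp2c69 share nearly the same transcript end, and all 4 were lower, with log2 ratios of -1.65, -0.73, -0.59 and -2.90.

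Other Cyp2c genes differed less or the other way. Cyp2c29, a CAR and PXR target, had 932 CPM in pIVCL and 953 CPM in Control (ratio 0.978, 0.951 to 1.01). The epoxygenases Cyp2c50 and Cyp2c54 had 635 and 187 CPM in pIVCL, against 755 and 329.5 CPM in Control, and Cyp2c68 had 166 and 259 CPM. Cyp2c23, an arachidonic acid epoxygenase that lies outside the main cluster, had 307 and 292 CPM (ratio 1.05). Cyp2c70, which makes the muricholic acids of mouse bile, was the 1 member past 2-fold higher, at 622 CPM in pIVCL and 271 CPM in Control (log2 ratio 1.14). Its call was lost in 4 alternatives: the log2 ratio was 0.99 with a mitochondrial limit of 15%, 0.87 as a mean over cells, 0.86 in cells under 1500 UMIs and 0.44 in cells between 1500 and 5000 UMIs. Cyp2c55, a CAR and PXR target too low to pass that rule, had 366 UMIs in pIVCL and 32 in Control, or 20.5 and 4.44 CPM (ratio 4.61, 3.21 to 6.84).

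In the Cyp2a and Cyp2f subfamilies most values were higher in pIVCL. Cyp2f2, which oxidises naphthalene and styrene, had 1096 CPM in pIVCL and 572 CPM in Control (ratio 1.92, 1.85 to 1.98). Cyp2a12, a steroid and bile acid 7-alpha-hydroxylase, had 410.1 and 229 CPM (ratio 1.79). Cyp2a4, a steroid 15-alpha-hydroxylase, had 379 and 258 CPM (ratio 1.47), and Cyp2a5, the mouse coumarin hydroxylase, had 191 and 146 CPM (ratio 1.31). None of these 4 was past 2-fold over all hepatocyte-like cells. The female-predominant Cyp2b9 and Cyp2b13 had 212 and 134 CPM in pIVCL, against 330.1 and 178 CPM in Control. Cyp2b10, the classical CAR target, had 59.0 and 44.4 CPM (ratio 1.33).

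Cyp3a11, the main PXR-controlled oxidase of steroids and drugs, differed little, at 3395 CPM in pIVCL and 3003 CPM in Control (ratio 1.13, 1.11 to 1.15). Cyp3a25 had 465 and 474 CPM and Cyp3a13 145 and 106 CPM. Cyp3a59 had 88.4 and 44.7 CPM (ratio 1.98, 1.75 to 2.24). The female-predominant Cyp3a44 was past 2-fold lower, with 318 UMIs in pIVCL and 1019 UMIs in Control, or 17.8 CPM against 141 CPM (log2 ratio -2.10). Cyp3a16 was lower as well on few molecules, with 2 UMIs in pIVCL and 26 in Control (ratio 0.0310, 0.00357 to 0.124).

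Both measured omega-hydroxylases of fatty acids that PPAR-alpha controls most strongly were lower. Cyp4a10 had 227 CPM in pIVCL and 678 CPM in Control (log2 ratio -1.50), and Cyp4a14 had 150.3 and 666 CPM (-2.01). Cyp4a31, a low neighbour, had 11.2 and 7.36 CPM. The leukotriene and fatty acid hydroxylase Cyp4f14 had 227 CPM in each library (ratio 0.998), and Cyp4v3, another fatty acid omega-hydroxylase, had 164 and 193 CPM. The arachidonic acid epoxygenase Cyp2j5 had 220.4 CPM in pIVCL and 309 CPM in Control. In the Cyp2d subfamily Cyp2d40 was past 2-fold lower at 36.9 CPM in pIVCL and 94.0 CPM in Control, a call lost in 7 of the alternatives tried. Cyp2d10 had 310.4 and 350.2 CPM, and Cyp2d26 had 327 and 484 CPM. The remaining 14 members measured in these cells, with at most 91.6 CPM, had log2 ratios between -0.84 and 0.18. Another 26 of the 75 members had under 20 summed UMIs in these cells.

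The 8 members past 2-fold lower in pIVCL were below 0 on the log2 scale in each of 3 depth ranges. Hepatocyte-like cells under 1500 UMIs numbered 666 in pIVCL and 115 in Control, those between 1500 and 5000 UMIs 401 and 90, and those of at least 5000 UMIs 786 and 259. The deepest range held 90.9% of the class UMIs in pIVCL and 95.0% in Control, so it carried the sums. Summed P450 levels increased with depth in both libraries, with 8512, 9572 and 13161 CPM from shallow to deep in pIVCL and 11202, 13847 and 17983 CPM in Control. Cyp2e1 had log2 ratios of -2.61, -2.18 and -2.22 in the 3 ranges, and Cyp2c69 had -2.65, -2.78 and -2.90. Of the 36 members with 50 CPM, 6 had the other sign in the middle range, where Control rests on 90 cells. All 6 were higher in pIVCL over all hepatocyte-like cells. In the middle range Cyp2a12, Cyp2a4, Cyp2a5, Cyp2j6 and Cyp3a13 had log2 ratios of -0.06, -0.18, -0.45, -0.14 and -0.62, and Cyp2b10 had 36.9 CPM in pIVCL and 93.7 CPM in Control. Cyp2c38 had the other sign in the shallow range (8 and 0 UMIs) and Cyp2c29 in the deepest (0.01). Median mitochondrial shares were 3.73% in pIVCL and 17.0% in Control over all hepatocyte-like cells, but 19.1% and 19.8% in the deepest range.

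**Figure D2:**
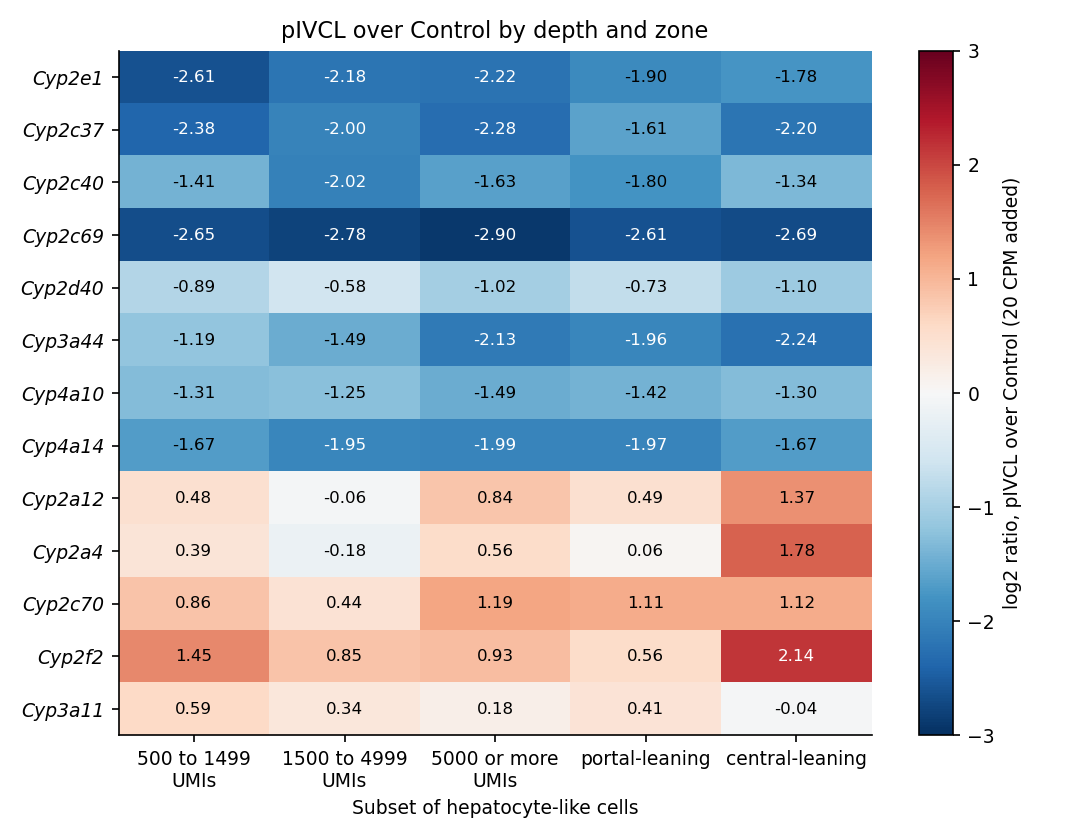
log2 ratios of pIVCL over Control (20 CPM added) for 13 members in 5 subsets of hepatocyte-like cells, split by depth and by zone. The 8 members that were past 2-fold lower over all hepatocyte-like cells are below 0 in every column, and Cyp2f2 and Cyp2a4 have their highest values, 2.14 and 1.78, in central-leaning cells.

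Shares of cells with a UMI were compared after each cell was thinned to 1000 UMIs. Of 1423 pIVCL and 379 Control hepatocyte-like cells of that depth (430 and 85 shallower cells were left out), Cyp2e1 was seen in 26.6% of pIVCL cells (24.4% to 29.0%) and 61.2% of Control cells (56.1% to 66.1%). Unthinned shares were 43.0% and 79.1%. Cyp2f2 was seen in 50.4% and 30.9%, Cyp2c69 in 7.59% and 47.0%, and Cyp2c70 in 40.3% and 21.6%. Free RNA was part of these shares: among B cell-like cells, which should lack these genes, Cyp2e1 was seen in 10.9% of pIVCL and 23.5% of Control cells at the same thinned depth (median depth 1835 and 3254 UMIs, against 2603 and 7156 in hepatocyte-like cells). For Cyp2f2 the B cell-like share was 26.6% in pIVCL and 7.58% in Control, for Cyp2c69 1.59% and 8.33%, and for Cyp2c70 12.2% and 4.55%. For Cyp3a11 it was 63.5% in pIVCL and 25.8% in Control, against 85.0% and 80.2% in hepatocyte-like cells. Over the 55 quantified members, intervals of the 2 libraries stood apart with a higher share in pIVCL for 4 and with a lower share for 17, against 3.41% and 2.23% of 14677 genes. Those 14677 genes were not matched to the members in level. How unusual the member counts are among genes of like level was therefore not shown. Thinning does not even out the mix of clusters. The shallow cluster 0 held 988 of 1853 pIVCL and 182 of 464 Control hepatocyte-like cells, with P450 sums of 7258 and 11971 CPM.

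Cells were placed along the lobule by 14 central and 15 portal genes, none of them a Cyp gene. A hepatocyte-like cell of at least 1500 UMIs leaned central when its scaled sum of central genes exceeded that of portal genes. Central-leaning cells numbered 254 of 1187 (21.4%) in pIVCL and 122 of 349 (35.0%) in Control. Leaning is a position on a continuous score and not a cell type, and 106 pIVCL and 34 Control cells lay close to its boundary. Glul, which encodes the glutamine synthetase of the innermost central layer, had 48.4 CPM in pIVCL and 1627 CPM in Control hepatocyte-like cells, and only 4 pIVCL cells but 32 Control cells held enough Glul UMIs to be counted in that layer. The part of this zone makeup in the differences over all hepatocyte-like cells was not tested apart from the values within zones that follow.

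The P450 genes showed the known zones in both libraries. In pIVCL, 8 of 35 members with at least 50 CPM in the higher zone were past 2-fold higher in central-leaning cells and 1 in portal-leaning cells, against 0.976% and 1.42% of 2459 genes. In Control, 11 of 35 were past 2-fold central and 2 portal, against 2.41% and 1.98% of 2570 genes. The same 8 were central in both: Cyp1a2, Cyp2a5, Cyp2c37, Cyp2c38, Cyp2c50, Cyp2c69, Cyp2e1 and Cyp4a14. Cyp2b13, Cyp2c54 and Cyp2c67 passed in Control, with central over portal log2 ratios of -0.04, 0.57 and 0.60 in pIVCL and 1.00, 1.26 and 1.44 in Control. Whether these zone ratios differ between the libraries was not tested, since each has 1 library.

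Cyp2a5 had the steepest central gradient of the members with 50 CPM, with 578 CPM in central-leaning and 47.4 CPM in portal-leaning cells of pIVCL (log2 ratio 3.15), and 322 and 17.8 CPM in Control (3.18). Cyp2e1 kept its gradient while its level was lower: 1962 CPM central and 217 CPM portal in pIVCL (ratio 9.03), and 6779 and 868 CPM in Control (ratio 7.81). Cyp1a2 had 581 and 130.3 CPM in pIVCL and 819 and 104 CPM in Control. Without Glul-layer cells the central-leaning level of Cyp1a2 was 570.3 CPM in pIVCL and 553 CPM in Control. That of Cyp2a5 was 573 and 151 CPM. Cyp2c50 had 1027 and 498 CPM in pIVCL and 1299 and 360.4 CPM in Control, and the low member Cyp2c38 had 52.9 and 14.3 CPM in pIVCL and 113 and 21.7 CPM in Control. In the 32 Glul-layer cells of Control, Cyp2e1 reached 8428 CPM, Cyp2c37 1832 CPM and Cyp1a2 1304 CPM.

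Cyp2f2 was the portal member of both libraries, and its gradient was flatter in pIVCL. It had 188 CPM in central-leaning and 1459.5 CPM in portal-leaning cells of pIVCL, and 27.2 and 980.2 CPM in Control, log2 ratios of -2.83 and -4.41. Cyp2a4 had 310.2 and 409 CPM in pIVCL (-0.38), and 76.3 and 393 CPM in Control (-2.10). For both, the library difference was larger among central-leaning cells than among portal-leaning ones. The central-leaning level of Cyp2f2 was 6.90 times that of Control (5.50 to 8.76), and 5.42 times (4.23 to 7.04) without Glul-layer cells. The portal-leaning level was 1.49 times that of Control. Free RNA of both genes moved the same way: in B cell-like cells the share with a UMI at 1000 UMIs per cell was 26.6% in pIVCL and 7.58% in Control for Cyp2f2, and 8.71% and 3.79% for Cyp2a4. The part of free RNA in these gradients was not tested.

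Within central-leaning cells, 4 of 35 members were past 2-fold higher in pIVCL (Cyp2a12, Cyp2a4, Cyp2c70 and Cyp2f2) and 8 were lower, against 2.99% and 2.62% of 2706 genes. Glul-layer cells held 60523 of 4803276 central-leaning UMIs in pIVCL and 1067284 of 3014499 in Control. Without these cells Cyp2a5 was past 2-fold higher as well (log2 ratio 1.79, against 0.81 with them). Cyp2b13 was then past 2-fold lower (-1.03, against -0.86) and Cyp2d40 was not (-0.87, against -1.10). Within portal-leaning cells, 1 of 33 was higher (Cyp2c70) and 7 were lower, against 1.17% and 1.54% of 2474 genes. The 7 lower members were the same in both zones: Cyp2c37, Cyp2c40, Cyp2c69, Cyp2e1, Cyp3a44, Cyp4a10 and Cyp4a14. Cyp2c69 had 212 CPM in pIVCL and 1479 CPM in Control central-leaning cells, and 63.0 and 486 CPM in portal-leaning cells. Cyp4a14 had 293 and 976 CPM central, and 98.7 and 446 CPM portal. For these 7 genes the lower pIVCL value was thus seen in each zone. Cyp2a12 had 417 CPM in pIVCL and 149 CPM in Control central-leaning cells, and 413 and 288 CPM in portal-leaning cells.

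Finer steps along the axis showed that the genes parted in different ways. Each library's cells were cut into 5 groups of equal number by the scaled central share, whose medians ran from 0.141 to 0.681 in pIVCL and from 0.104 to 0.897 in Control. Cyp1a2 lay close at matched shares, with 655 CPM in pIVCL at 0.681, and 414 and 1068 CPM in Control at 0.557 and 0.897. Cyp2e1 did not: it had 794 CPM in pIVCL at a share of 0.458, below the 1634 CPM of Control at 0.336. Cyp2a5 lay the other way, with 671 CPM in pIVCL at 0.681, above the 459 CPM of Control at 0.897. Cyp2c70 varied little along the axis, between 534 and 718 CPM in pIVCL and between 215 and 357 CPM in Control. The central list itself includes genes that were lower in pIVCL, such as Glul and Oat (159.6 and 1057 CPM), so equal shares need not be equal places in the lobule.

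**Figure D3:**
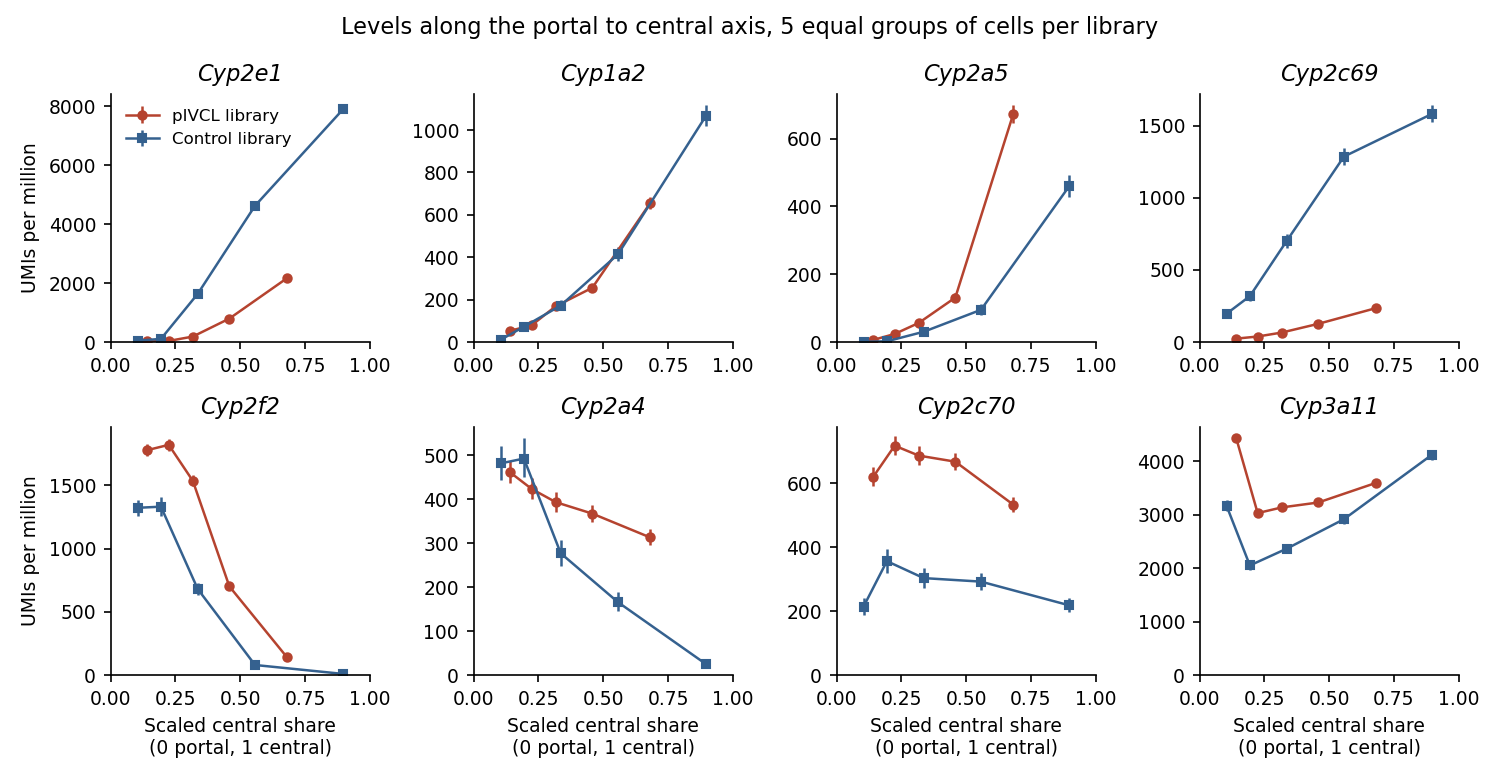
CPM of 8 members against the median scaled central share of 5 equal groups of hepatocyte-like cells per library (0 is portal, 1 is central), with pIVCL in red, Control in blue and 95% Poisson intervals. Cyp1a2 follows nearly the same line in both libraries, while Cyp2e1 and Cyp2c69 are lower and Cyp2c70 is higher in pIVCL in each of the 5 groups.

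In single cells of at least 5000 UMIs thinned to that depth, the central gene Cyp2e1 and the portal gene Cyp2f2 were counted together. Cells with Cyp2e1 alone were 19.5% of 786 pIVCL cells (16.8% to 22.4%) and 41.7% of 259 Control cells (35.6% to 48.0%). Cells with Cyp2f2 alone were 52.5% (49.0% to 56.1%) and 31.7% (26.0% to 37.7%). Cells with both were 26.6% of each library. Cells with neither were 1.40% in pIVCL and 0 of 259 in Control. With free RNA of both genes in the droplets, a single UMI does not show that a cell expressed the gene.

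**Figure D4:**
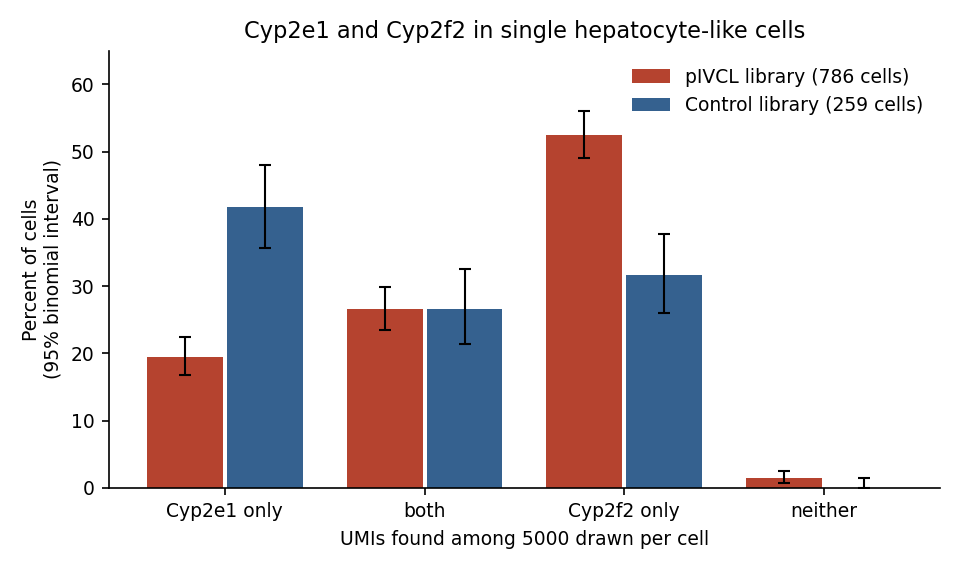
Percent of hepatocyte-like cells with a UMI of Cyp2e1 only, of both genes, of Cyp2f2 only or of neither among 5000 UMIs drawn per cell, with pIVCL in red (786 cells), Control in blue (259 cells) and 95% binomial intervals. The Cyp2e1-only and Cyp2f2-only shares change places between the libraries (19.5% and 52.5% in pIVCL, 41.7% and 31.7% in Control), while the share with both is 26.6% in each.

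Lists of P450 members and of genes around them were counted in the same cells. The lists hold many members already given above, and some genes are in several lists. These counts thus partly repeat the member values. In these cells 48.8% of all 11287 genes measured were below 0, 0.434% were past 2-fold lower and 0.416% past 2-fold higher, and the median log2 ratio was 0.00. Of 11 measured PPAR-alpha genes, 9 were below 0 and 2 above, with a median of -0.86 and with Cyp4a10 and Cyp4a14 past 2-fold lower. Ppara, the receptor itself, had 53.2 CPM in pIVCL and 113 CPM in Control. Of 14 CAR and PXR genes, 10 were below 0 and 4 above (median -0.22), and 2 were past 2-fold lower, Cyp2c37 and Nr1i3. Nr1i3, which encodes CAR and is also in the central list, had 62.2 CPM in pIVCL and 171 CPM in Control, and Nr1i2, which encodes PXR, had 29.4 and 37.1 CPM. Of 5 measured aryl hydrocarbon receptor genes, 4 were below 0 and 1 above (median -0.08), and 0 were past 2-fold.

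Of 11 regulators, 10 were below 0, against 48.8% of all genes (median -0.30) and 1, Nr1i3, was past 2-fold lower. Hnf4a, the hepatocyte nuclear factor whose motif was counted above, had 241 CPM in pIVCL and 302 CPM in Control. Of 5 electron donor genes, 4 were above 0 (median 0.24) and 0 past 2-fold. Por, which passes electrons to all of these P450s, was the exception, at 127 CPM in pIVCL and 223 CPM in Control. Cyb5a, cytochrome b5, had 1524 and 1223 CPM. The list of 9 P450 genes outside families 1 to 4 holds mostly enzymes that make sterols and bile acids or clear retinoids. Of these 9 genes, 5 were below 0 and 4 above (median -0.07), and 0 were past 2-fold. Cyp7a1, the rate-limiting enzyme of bile acid synthesis, had 78.0 and 52.8 CPM. The 10 measured epoxygenases and omega-hydroxylases of fatty acids are all members. Of them 8 were below 0 and 2 above (median -0.16), with Cyp4a10 and Cyp4a14 among those below 0.

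Genes that differ between the sexes in mouse liver were counted in the same cells. There 48.8% of all genes were below 0, 0.434% past 2-fold lower and 0.416% past 2-fold higher. Of 7 female-predominant genes, 6 were below 0 and 1, Cyp2a4, above (median -0.43, or -1.63 with 1 CPM in place of 20 CPM added), with Cyp2c69 and Cyp3a44 past 2-fold lower. Apart from Cux2, the 7 female-predominant genes are members given above. Of 5 male-predominant genes, 3 were below 0 and 2 were past 2-fold higher, with a median of -0.04. Those 2 were Mup20, a major urinary protein, at 1150.2 CPM in pIVCL and 114 CPM in Control, and Selenbp2, at 167 and 14.4 CPM. Hsd3b5, a male-predominant steroid dehydrogenase, had 0.280 and 17.1 CPM, and the male-predominant steroid hydroxylase Cyp2d9 had 19.8 and 21.0 CPM. The female-predominant genes thus did not all go 1 way, nor did the male-predominant ones.

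Outside hepatocytes most P450 UMIs were at the level that free hepatocyte RNA would give. That level was set by 16 secreted-protein genes of hepatocytes, so it does not cover free RNA of other cell classes. A member was counted above it in a class with at least 10 UMIs there and a lower Poisson limit over 3 times the expected UMIs. By this rule 10 of 43 members stood above it in at least 1 other class of pIVCL and 11 of 43 in Control, against 94.1% of 12414 and 95.4% of 12905 genes. Over all members, B cell-like cells held 3163 CPM of P450 UMIs in pIVCL and 1581 CPM in Control, 1.28 and 0.764 times the free RNA level. Levels of hepatocyte members such as Cyp3a11 or Cyp2e1 in other classes are therefore not reported as expression.

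Cyp4b1, a fatty acid and xenobiotic oxidase best known from lung, was the endothelial member. LSEC-like cells (liver sinusoidal endothelial cells) held 83.8% of its UMIs in kept pIVCL cells and 89.3% in Control. Its level there was 568 CPM in 611 pIVCL cells (1236 UMIs) and 799 CPM in 1061 Control cells (4743 UMIs), a ratio of 0.711 (0.667 to 0.757). Hepatocyte-like cells had 1.34 CPM in pIVCL and 5.28 CPM in Control. The LSEC-like class is made of unlike clusters: cluster 3, with 8 pIVCL and 716 Control cells, had 833 CPM in Control, while cluster 5, with 466 and 33 cells, had 585 CPM in pIVCL and 555 CPM in Control. Cluster 6, shallow in both libraries, had 354 and 382 CPM. Within each cluster that both libraries filled, the pIVCL and Control intervals overlapped.

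At 1000 UMIs per cell, Cyp4b1 was seen in 42.6% of 519 pIVCL LSEC-like cells (38.3% to 47.0%) and 48.5% of 888 Control cells (45.2% to 51.9%). It was seen in 0 of 941 and 0 of 132 B cell-like cells, which at the limit of 3 counts allows shares of up to 0.319% and 2.27% with a UMI. Vascular endothelial-like cells had 261 CPM in pIVCL (62 UMIs, 41 cells) and 91.6 CPM in Control (29 UMIs, 36 cells), a ratio of 2.85 (1.81 to 4.60). This runs against the LSEC-like ratio, and no test of the difference was possible with 1 library per group. Hepatic stellate-like cells, which store vitamin A, had 136 CPM in pIVCL and 124 CPM in Control, with a UMI in 21 of 101 and 41 of 188 cells. At 1000 UMIs per cell it was seen in 4.35% and 9.26% of them. The part of free endothelial RNA and doublets in these stellate-like values was not tested. Lower levels above free hepatocyte RNA were counted in plasmacytoid dendritic (pDC)-like cells of pIVCL (17 UMIs in 5 of 37 cells). Control had 9 UMIs in 1 of 24 such cells, under the minimum of 10. In both libraries they were counted in monocyte/macrophage-like cells (24 UMIs in 9 of 212 cells and 23 UMIs in 4 of 37 cells) and Kupffer-like cells (10 and 31 UMIs). Free endothelial RNA is not covered by that level and doublets were largely not removed, so these counts are not reported as expression. A small unnamed endothelial cluster led by Adgrg6 and Ly6a, with 21 pIVCL and 123 Control cells, had 201 and 285 CPM.

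Cyp4f18, which in mice oxidises leukotriene B4, was the leukocyte member. B cell-like cells had 139 CPM in pIVCL (294 UMIs) and 120.5 CPM in Control (59 UMIs), a ratio of 1.15 (0.867 to 1.55). Neutrophil-like cells had 188 CPM in 89 pIVCL cells and 207 CPM in only 3 Control cells. Monocyte/macrophage-like cells had 126 CPM in pIVCL and 62.0 CPM in Control (ratio 2.04, 1.28 to 3.39), where Control rests on 21 UMIs in 37 cells. Kupffer-like cells, the resident macrophages, had 27.7 and 23.0 CPM. At 1000 UMIs per cell it was seen in 12.0% of pIVCL and 12.1% of Control B cell-like cells, and in 0.193% and 0 of LSEC-like cells. LSEC-like cells held 16 and 3 UMIs of it. Of these, 15 and 3 lay in cluster 5, at 7.48 CPM in pIVCL (4.19 to 12.3) and 24.1 CPM in Control (4.98 to 70.6), and Control cluster 3 held 0. Cyp4f16, a related fatty acid hydroxylase, was spread over macrophage-like and endothelial classes, with 37.8 and 68.0 CPM in monocyte/macrophage-like, 21.8 and 16.8 CPM in Kupffer-like, 19.3 and 16.5 CPM in LSEC-like and 25.6 and 11.6 CPM in stellate-like cells. In T cell-like cells it had 9 UMIs in pIVCL and 12 in Control, and the rule counted it above free RNA in Control.

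The aryl hydrocarbon receptor targets Cyp1a1 and Cyp1b1 were near absent from hepatocyte-like cells, with 4 and 0 UMIs of Cyp1a1 and 0 and 0 UMIs of Cyp1b1, and were found in small vascular and mesenchymal groups. Of the Cyp1a1 UMIs in kept cells, the unnamed Adgrg6 cluster held 31.5% of 54 in pIVCL (17 UMIs in 5 of 21 cells) and 89.2% of 148 in Control (132 UMIs in 23 of 123 cells). Its level in that cluster was 214 CPM in pIVCL (125 to 343) and 136 CPM in Control (114 to 161). LSEC-like cells had 27 UMIs in pIVCL and 0 in Control, but 26 of the 27 came from 5 cells of cluster 5. In that cluster the interval ran from 8.47 to 19.0 CPM in pIVCL, and the 33 Control cells held 0 UMIs, with an upper limit of 29.7 CPM, so no difference was detectable within it. Vascular endothelial-like cells had 5 UMIs in pIVCL and 16 in Control.

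Cyp1b1, which acts on oestrogens and retinoids, had 5 UMIs in pIVCL and 22 UMIs in Control vascular endothelial-like cells, or 21.1 CPM against 69.5 CPM (ratio 0.303, 0.0897 to 0.821). In stellate-like cells it had 10 and 3 UMIs (ratio 7.92, 2.04 to 44.8). Both rest on few molecules and cells. Cyp2s1, an epithelial member, was the mesothelial one, with 205 CPM in 21 pIVCL cells and 267 CPM in 44 Control cells. Mesothelial-like cells held 66.7% of its UMIs in kept pIVCL cells and 84.4% in Control.

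**Figure D5:**
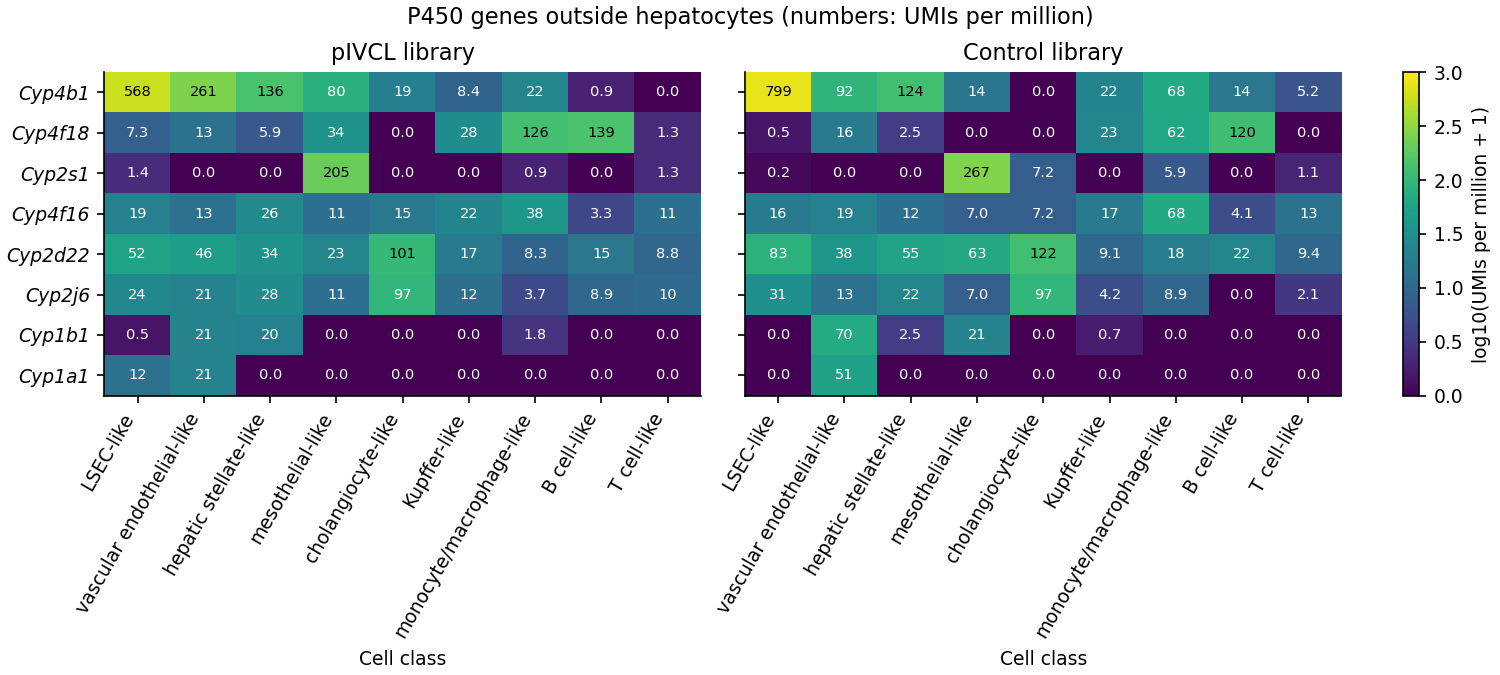
CPM (numbers in the cells, colour on a log10 scale) of 8 members in 9 cell classes other than hepatocytes, for pIVCL on the left and Control on the right. Cyp4b1 stands out in LSEC-like cells (568 and 799 CPM), Cyp4f18 in B cell-like cells (139 and 120.5 CPM) and Cyp2s1 in mesothelial-like cells (205 and 267 CPM).

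Members shared between hepatocytes and other classes were lower and more even. Cyp2d22 had 78.2 CPM in pIVCL and 91.6 CPM in Control hepatocyte-like cells, 101 and 122 CPM in cholangiocyte-like cells, the bile duct epithelium, and 51.9 and 83.4 CPM in LSEC-like cells. Within the LSEC-like clusters that both libraries filled it had 50.8 CPM in pIVCL and 32.2 CPM in Control (cluster 5) and 65.1 and 61.5 CPM (cluster 6), with overlapping intervals, while cluster 3, mostly of Control, had 86.0 CPM in Control. It also stood above free RNA in stellate-like cells (33.5 and 54.8 CPM) and vascular endothelial-like cells (46.4 and 37.9 CPM). Cyp2j6, an epoxygenase of arachidonic acid, had 53.3 and 50.3 CPM in hepatocyte-like, 97.0 and 97.2 CPM in cholangiocyte-like, 27.6 and 22.4 CPM in stellate-like and 24.3 and 31.2 CPM in LSEC-like cells. Cyp4f13 had 33.2 and 37.4 CPM in hepatocyte-like cells and between 12.9 and 46.8 CPM in the 4 other classes where it stood above free RNA in at least 1 library.

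The remaining members above free RNA did so in 1 library. Cyp2u1, a long-chain fatty acid hydroxylase, did so in Control stellate-like cells, with 4 UMIs in pIVCL and 29 in Control (ratio 0.328, 0.0837 to 0.934). Cyp2j9 did so in Control LSEC-like cells, with 7 UMIs in pIVCL and 36 in Control. Cyp2r1, a vitamin D 25-hydroxylase, did so in pIVCL LSEC-like cells, with 12 UMIs in each library. Being above the level in 1 library and not in the other does not show that the libraries differ.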

How the data were processed

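Single-cell RNA libraries of mixed liver suspensions were analysed, 1 for pIVCL and 1 for Control. The authors deposited UMI counts per gene and barcode as whole numbers, with no normalization. Per the submitters' processing notes, Cell Ranger 3.0.2 and the build mm10 were used, with an annotation release not given in the sources used here. Totals were 38154000 UMIs for pIVCL and 24637681 for Control, and intervals cover counting error only, at a level of 95%.

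A barcode counted as a cell from 500 UMIs and 200 genes on, unless mitochondrial UMIs exceeded 25% (1590 pIVCL and 848 Control barcodes). Scrublet, run in scanpy 1.11.5 with 6% doublets assumed, did not work on these libraries (3 and 5 calls). Both libraries were clustered together with leidenalg 0.10.2 (resolution 1, 20 neighbours, 30 principal components, 2000 variable genes) with all Cyp and mitochondrial genes left out. Clusters were named with "-like" from markers of 21 cell classes. The 1 cluster of other leading genes stayed unnamed (21 pIVCL and 123 Control cells).

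Levels are UMIs summed over a class and divided by the class total (CPM, per 1000000 UMIs). Ratios carry conditional exact binomial intervals, levels exact Poisson intervals, shares exact binomial intervals, and a share of 0 a limit of 3 counts. A 2-fold difference was read on log2(CPM + 20), which understates low genes. A Glul-layer cell leaned central and had at least 3 Glul UMIs and 20 per 10000. With 1 library per group no test was made. The counting steps were checked on simulated counts. Alternatives were other filters, classes, scalings (edgeR 4.0.16 for TMM), zones and depths. Promoters and transcript ends come from RefSeq and GENCODE M21, and 75 of 75 members were compared over their last 300 bases.

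Members with 200 CPM in hepatocyte-like cells, past 2-fold between libraries or zones with 50 CPM, or above the free RNA level elsewhere are given with values. Members, lists and rules were chosen with earlier results of these data known. Xist, the Y-linked genes and members outside that rule were named after their values were seen.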

Additional observations from a re-analysis of the deposited data

How the results depend on the processing

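No paired analysis was possible because each group has 1 library. The count of members past 2-fold higher in hepatocyte-like cells, 1 as reported (Cyp2c70), was 0 with at most 15% mitochondrial UMIs, 0 as a mean over cells of the per-cell CPM, 0 in cells between 1500 and 5000 UMIs, and 2 with at most 50% mitochondrial UMIs, with 1 CPM added or without Glul-layer cells. The count past 2-fold lower, 8 as reported, stayed within 1.5 times that in every alternative run. The median of the female-predominant list was -1.63 with 1 CPM added, against -0.43. The count past 2-fold portal in pIVCL was 2 with 1 CPM added, against 1. With classes set per cell, 43 pairs of member and class stood above free RNA in pIVCL, against 27. The cause of these shifts was not tested. Of the values of single members, 634 kept their side of the 2-fold line, 16 lost the call and 5 gained it. The sign differed in 11, none of them of a called value. Scaling by the median of ratios or by TMM moved log2 ratios by -0.01. Depth limits the classes outside hepatocytes most, where several members rest on under 30 UMIs.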
